A study of Homo sapiens with 54 samples.

Results

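The inhibitor of DNA binding (ID) genes ID1, ID2, ID3 and ID4 encode helix-loop-helix proteins that lack the basic region with which related factors bind DNA. ID proteins pair with the E proteins TCF3, TCF4 and TCF12, keep them from activating their target genes, and are known for holding cells in a proliferating, undifferentiated state. Their transcription responds to bone morphogenetic protein (BMP) signals carried by the SMAD proteins, and in breast cancer ID1 and ID3 are known for tumor initiation and metastasis and ID4 for basal-like tumors. The 4 ID genes were chosen from the 27470 rows of the table of all genes by their response to cisplatin (CDDP), which differed between parental and olaparib-resistant (OlaR) cells. The effects of olaparib and of resistance share libraries with these CDDP responses and are not independent of the choice. All comparisons of the ID genes are therefore given as values with their errors, without a test, and tests are given for other genes of the pathway.

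RNA was measured in 54 libraries of the TNBC lines SUM1315, which carries a BRCA1 mutation, and MDA-MB-468, in which BRCA1 is wild type, with 3 libraries for each of 18 conditions. Parental SUM1315 cells were left untreated or received overnight 8 µM olaparib, a PARP inhibitor, 2 or 4 µM CDDP, a platinum drug that crosslinks DNA, or olaparib together with either CDDP dose. Parental MDA-MB-468 cells were left untreated or received 3 µM olaparib, 1 or 2.5 µM CDDP, or the combinations. OlaR cells had been selected from each line in rising olaparib doses, were kept in 25 µM (SUM1315) or 15 µM (MDA-MB-468) olaparib, and were measured in that drug alone or with either CDDP dose of their line. The higher MDA-MB-468 dose is 2.5 µM in the sample descriptions and 2 µM in the text on the design of the series. OlaR cells were not measured free of olaparib, each line gave 1 resistant derivative, and the drug dose of OlaR cells exceeded that of parental cells, so that resistance, long exposure and dose cannot be told apart. The sources do not say whether the 3 libraries of a condition came from separate cultures, so p-values measure only the spread between these libraries, which may be technical.

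Each library held 2070301 to 9268162 reads in genes (median 6006857). OlaR libraries were shallower than parental libraries of the same line: medians were 3900438 and 6173974 reads in SUM1315 and 4455837 and 7331369 reads in MDA-MB-468. The part of this difference in depth in the results on OlaR cells was not tested. Levels are given below as adjusted read counts, meaning reads that had been adjusted to a common library size of 5585170 reads. In bulk RNA, fewer cells with an mRNA and less of it per cell cannot be told apart. Unless stated otherwise, group values are mean ± SD of 3 libraries, and differences are on the log2(value + 1) scale with their SE. Tests used limma within each line on genes with at least 10 adjusted reads in at least 3 libraries, and a gene was called at a Benjamini-Hochberg adjusted p of at most 0.05.

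Marker genes showed 2 different cell types under the common TNBC label. MDA-MB-468 expressed 9 of 10 epithelial markers, led by KRT19 with a mean of 13400 adjusted reads, and 2 of 6 mesenchymal markers, led by FN1 with 32.7, each at a mean of at least 10. SUM1315 expressed all 6 mesenchymal markers, led by VIM with 10800 adjusted reads, and 6 of 10 epithelial markers, led by KRT17 with 1530, whereas EPCAM, KRT19 and CDH1 lay under 1. Summed epithelial levels per library ran from 1750 to 6510 in SUM1315 and from 16600 to 28200 in MDA-MB-468, and summed mesenchymal levels from 12800 to 19400 and from 23.0 to 95.4. Of the receptors whose loss defines TNBC, PGR lay under 1 in both lines, ERBB2 averaged 39.4 adjusted reads in SUM1315 and ESR1 88.1 in MDA-MB-468. The libraries held some RNA of genes used as markers of other cells, namely COL1A1 (438 in SUM1315, 48.3 in MDA-MB-468), CD14 (107 and 24.7) and PECAM1 in SUM1315 (135). Several of these markers differed between the conditions compared, and some of their values are given below.

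In the human genome (build GRCh38) the 4 genes lie on different chromosomes. ID1 is on the plus strand of chromosome 20 from 31605283 to 31606515, with 2 exons. ID2 is on the plus strand of chromosome 2 from 8678845 to 8684461, with 3 exons. ID3 is on the minus strand of chromosome 1 from 23557926 to 23559501, with 3 exons. ID4 is on the plus strand of chromosome 6 from 19837370 to 19842197, with 3 exons. All 4 genes had an entry among the RefSeq promoters. The promoters of ID1, ID3 and ID4 are shown because these genes were higher together in OlaR than in olaparib-treated parental MDA-MB-468 cells. The sequences are given as 250 bases that end at the base before the RefSeq start (GRCh38.p14), with matches to the searched letters in capitals. Their positions are chr20:31605039-31605288 on the plus strand for ID1, chr1:23559502-23559751 on the minus strand for ID3 and chr6:19837120-19837369 on the plus strand for ID4.
ID1: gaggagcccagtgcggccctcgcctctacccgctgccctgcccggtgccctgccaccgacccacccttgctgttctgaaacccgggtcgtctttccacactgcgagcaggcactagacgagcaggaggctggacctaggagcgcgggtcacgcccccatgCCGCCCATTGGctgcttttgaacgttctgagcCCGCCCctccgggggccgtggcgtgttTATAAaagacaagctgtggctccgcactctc
ID3: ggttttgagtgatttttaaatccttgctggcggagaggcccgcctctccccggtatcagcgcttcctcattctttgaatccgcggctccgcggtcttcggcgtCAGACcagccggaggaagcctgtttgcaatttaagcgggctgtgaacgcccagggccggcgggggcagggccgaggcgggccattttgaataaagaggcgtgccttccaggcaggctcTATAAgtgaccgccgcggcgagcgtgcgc
ID4: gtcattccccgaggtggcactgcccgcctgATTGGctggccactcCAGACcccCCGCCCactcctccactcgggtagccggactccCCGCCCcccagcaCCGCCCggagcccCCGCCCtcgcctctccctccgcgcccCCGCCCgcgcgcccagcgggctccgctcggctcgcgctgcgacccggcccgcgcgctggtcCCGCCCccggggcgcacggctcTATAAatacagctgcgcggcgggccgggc
All 3 carried TATAA on the sense strand, 31 to 27 bases before the start in ID1 and 29 to 25 bases before it in ID3 and ID4. The promoter of ID2 had no such match. TATAA was in 13.6% of 35116 promoters of the same length, and these letters were added after the sequences had been seen. CCAAT, on either strand, was in the promoters of ID1, ID2 and ID4 and in 32.0% of all promoters. GGGCGG, the GC box, was on either strand in ID1 (2 matches), ID2 (2) and ID4 (6) and in 42.6% of all promoters, and in ID1 1 of its matches adjoined the CCAAT match. CAGAC, the SMAD box, was in ID3 and ID4 and in 38.0% of all promoters. TGACGTCA (1.65% of all promoters), CACGTG (6.34%), GCGTGGGCG (0.72%) and GGCGCC (16.4%) had no match in the 4 windows on either strand. GC content was 66% in ID1, 69.2% in ID2, 62.0% in ID3 and 78.8% in ID4, beside a median of 58.0% over all promoters. The window of ID2, chr2:8681806-8682055 on the plus strand, lies inside the gene as placed above, and 202 of its 250 bases are annotated as untranslated region, compared with 6 in ID1 and 0 in ID3 and ID4.

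ID1, a direct target of BMP signaling, was an abundant mRNA in SUM1315 (percentile 98.2 of all rows) and less so in MDA-MB-468 (percentile 81.8). Untreated SUM1315 libraries held 2570, 3193 and 1879 adjusted reads of ID1 (2547 ± 658, n = 3). After 2 µM CDDP the libraries held 2433, 2690 and 1741 (2288 ± 491), and after 4 µM 1051, 1205 and 1073 (1110 ± 83.4). The lower dose overlapped with the untreated libraries, and all libraries of the higher dose lay below them. With olaparib, ID1 stood at 2530, 2614 and 1875 (2340 ± 405), with olaparib and 2 µM CDDP at 1657, 1427 and 1605 (1563 ± 121), and with olaparib and 4 µM CDDP at 1744, 1366 and 1302 (1471 ± 239). Here both CDDP doses lay below olaparib alone, and they overlapped with each other. OlaR SUM1315 cells held 2109, 1986 and 2162 adjusted reads (2086 ± 90.0), 1663, 1132 and 1631 with 2 µM CDDP (1476 ± 298) and 1060, 1255 and 1181 with 4 µM (1166 ± 98.6). ID1 in OlaR cells was thus lower at both doses, as it was in parental cells given olaparib. In the order of the 9 SUM1315 means, neighbors overlapped except at 2 steps: OlaR without CDDP lay above olaparib with 2 µM CDDP, and olaparib with 4 µM CDDP above OlaR with 4 µM.

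In MDA-MB-468, untreated libraries held 184, 252 and 250 adjusted reads of ID1 (229 ± 38.7, n = 3). CDDP at 1 µM gave 149, 124 and 124 (132 ± 14.6) and at 2.5 µM 153, 153 and 142 (149 ± 6.68). All 6 CDDP-treated libraries lay below the untreated libraries, and the doses overlapped. Olaparib gave 210, 261 and 290 (254 ± 40.4), olaparib with 1 µM CDDP 227, 135 and 168 (176 ± 46.8), and olaparib with 2.5 µM CDDP 140, 130 and 142 (137 ± 6.34). At 1 µM a single library, the 227, reached into the range of olaparib alone. OlaR cells held 459, 459 and 431 (449 ± 16.1), 289, 263 and 274 with 1 µM CDDP (275 ± 13.2) and 217, 174 and 233 with 2.5 µM (208 ± 30.3). OlaR cells without CDDP stood above every other MDA-MB-468 condition, and below them each condition overlapped with the next in order.

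ID3, which shares much of the expression and function of ID1, was abundant in both lines (percentiles 97.4 and 98.3). Untreated SUM1315 libraries held 1310, 1517 and 673 adjusted reads of ID3 (1166 ± 440, n = 3), with the third library far below the others. CDDP gave 1395, 1698 and 1083 at 2 µM (1392 ± 307) and 902, 875 and 950 at 4 µM (909 ± 38.0). Both doses overlapped with the wide range of the untreated libraries. Olaparib gave 1017, 992 and 1000 (1003 ± 13.1), with 2 µM CDDP 887, 853 and 953 (898 ± 50.9), and with 4 µM CDDP 972, 902 and 977 (951 ± 42.0). The libraries with both drugs lay below those with olaparib alone, by a small margin. OlaR cells held 2351, 2584 and 2606 (2514 ± 141), 2027, 1787 and 1954 with 2 µM CDDP (1923 ± 123) and 1870, 2070 and 1751 with 4 µM (1897 ± 162). All 9 OlaR libraries stood above all 18 parental libraries, and within OlaR both CDDP doses lay below no CDDP and overlapped with each other. Among the parental means, only olaparib alone and the combination with 4 µM CDDP were neighbors whose libraries did not overlap.

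In MDA-MB-468, ID3 was higher at each CDDP dose in parental cells without olaparib and lower at the higher dose in OlaR cells. Untreated libraries held 1173, 1153 and 1138 adjusted reads (1155 ± 18, n = 3), 1793, 1741 and 1958 at 1 µM CDDP (1831 ± 113), and 2440, 2441 and 2546 at 2.5 µM (2476 ± 60.9). Olaparib gave 1375, 1282 and 1402 (1353 ± 63.0), with 1 µM CDDP 1403, 1413 and 1369 (1395 ± 23.2), and with 2.5 µM CDDP 1919, 1788 and 1734 (1814 ± 95.3). With olaparib, the lower dose overlapped with olaparib alone and the higher dose lay above it. OlaR cells held 2147, 2356 and 2294 (2265 ± 107), 2102, 2003 and 2126 with 1 µM CDDP (2077 ± 65.1) and 1690, 1597 and 1732 with 2.5 µM (1673 ± 68.9). The OlaR conditions fell into 3 ranges without overlap, highest without CDDP, whereas parental cells without olaparib were lowest without CDDP. Over all 9 conditions the neighbors in rank that overlapped were 1 µM CDDP with the combination at 2.5 µM, and the combination at 1 µM with olaparib alone.

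ID2, which besides E proteins also binds retinoblastoma proteins, was less abundant (percentile 69.7 in both lines). Untreated SUM1315 libraries held 78.0, 86.9 and 82.8 adjusted reads (82.6 ± 4.43, n = 3), 46.0, 53.2 and 48.1 at 2 µM CDDP (49.1 ± 3.70) and 37.0, 40.3 and 39.8 at 4 µM (39.0 ± 1.76). These 3 conditions did not overlap, with the lowest values at the higher dose. Olaparib gave 53.0, 80.9 and 57.0 (63.6 ± 15.1), with 2 µM CDDP 44.7, 80.8 and 56.2 (60.6 ± 18.4), and with 4 µM CDDP 70.5, 53.8 and 64.0 (62.8 ± 8.45). With olaparib present, all 3 conditions overlapped. OlaR cells held 143, 175 and 131 (150 ± 22.8), 112, 82.0 and 94.7 with 2 µM CDDP (96.1 ± 14.8) and 134, 94.4 and 136 with 4 µM (121 ± 23.3). OlaR cells without CDDP lay above all parental libraries, and along the whole order only 2 and 4 µM CDDP alone were neighbors without overlap. In MDA-MB-468 the 27 libraries ranged from 47.5 to 120, condition means from 60.6 ± 2.86 (2.5 µM CDDP) to 95.7 ± 25.3 (olaparib), and all neighbors in the order overlapped.

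ID4 was a gene of MDA-MB-468 (percentile 82.3). Its untreated libraries held 268, 257 and 265 adjusted reads (264 ± 5.89, n = 3), 215, 263 and 192 at 1 µM CDDP (223 ± 36.1) and 332, 380 and 318 at 2.5 µM (343 ± 32.3). The higher dose lay above the untreated libraries and the lower dose overlapped with them. Olaparib gave 102, 95.7 and 67.4 (88.3 ± 18.4), with 1 µM CDDP 189, 155 and 193 (179 ± 20.7), and with 2.5 µM CDDP 427, 422 and 449 (433 ± 14.3). ID4 thus had its lowest level with olaparib alone and its highest with olaparib and 2.5 µM CDDP, and the 3 olaparib conditions were apart. OlaR cells held 193, 181 and 232 (202 ± 26.6), 176, 178 and 222 with 1 µM CDDP (192 ± 25.8) and 183, 226 and 167 with 2.5 µM (192 ± 30.8). The OlaR conditions overlapped throughout. In SUM1315, ID4 was near 0: the untreated libraries held 15, 11 and 11 unadjusted reads, and the other 24 libraries 0 to 6. ID4 passed the filter in SUM1315 through the untreated condition alone, so no fold is given for it there.

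**Figure D1:**
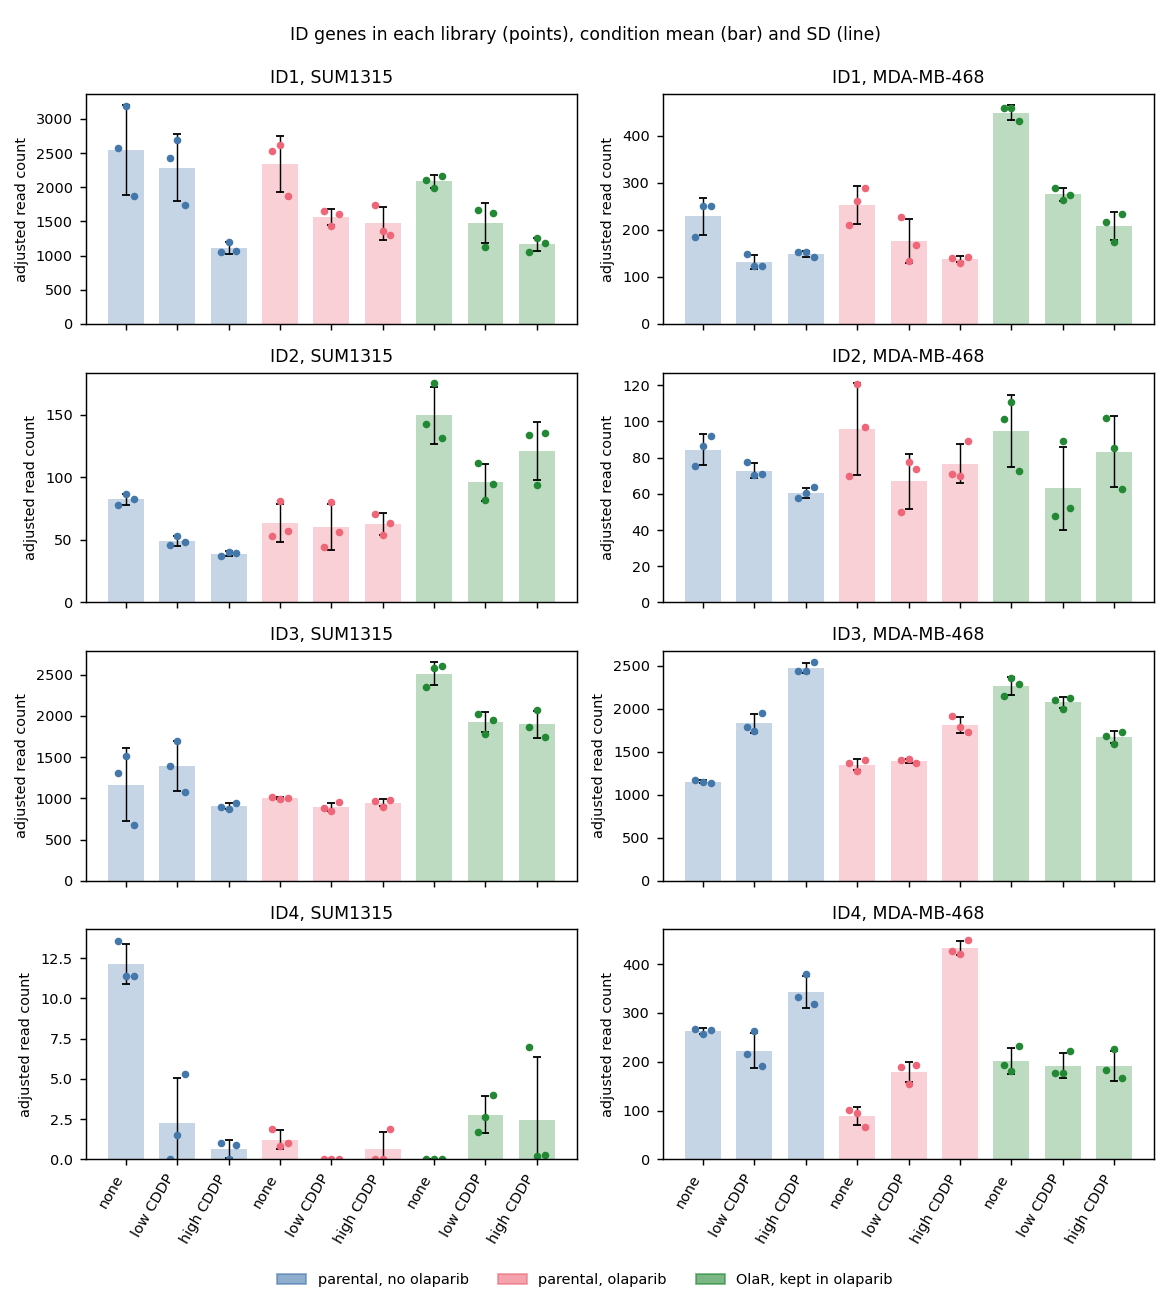
Adjusted read counts of ID1, ID2, ID3 and ID4 in the 9 conditions of SUM1315 and of MDA-MB-468, with points for libraries, bars for the mean of 3 and lines for the SD; each panel has its own axis. OlaR libraries of ID3 in SUM1315 (1751 to 2606) all lie above the parental libraries, and ID4 in SUM1315 stays near 0.

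The question of the CDDP comparisons was how platinum changes transcripts in parental cells and in cells that had become resistant to olaparib. These values chose the ID genes, so they carry no test. In SUM1315 at 4 µM, ID1 was lower with CDDP in each setting and ID2 and ID3 in some. The log2 difference of ID1 was -1.17 ± 0.16 (2.25-fold lower) for CDDP alone, -0.67 ± 0.16 (1.59-fold lower) on top of olaparib and -0.84 ± 0.16 (1.79-fold lower) in OlaR cells. That of ID2 was -1.06 ± 0.22 (2.09-fold lower) alone, 0.00 ± 0.22 on top of olaparib and -0.31 ± 0.22 in OlaR cells. The log2 difference of ID3 was -0.28 ± 0.16 alone, -0.08 ± 0.16 on top of olaparib and -0.41 ± 0.16 (1.33-fold lower) in OlaR cells, and without the third untreated library the value for CDDP alone was -0.63. At 2 µM, ID1 differed by -0.15, -0.57 and -0.52, ID2 by -0.74, -0.09 and -0.63 and ID3 by 0.31, -0.16 and -0.39 in the same order. Without the third untreated library the 2 µM value of ID3 for CDDP alone was -0.04 in place of 0.31, so its direction rested on that library.

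Counted over ID1, ID2 and ID3 in SUM1315 at 4 µM, the libraries of ID1 and ID2 lay wholly below those of the comparison group for CDDP alone, as those of 26.6% of all 13133 genes tested did, while 26.2% lay wholly above. On top of olaparib ID1 and ID3 were wholly below, as were 14.4% of genes, with 13.8% above. In OlaR cells ID1 and ID3 were wholly below, as were 18.6% of genes, with 16.6% above. Nothing is read from these counts, since the same contrasts chose the genes.

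In MDA-MB-468 the family split. At 2.5 µM the log2 difference of ID1 was -0.60 ± 0.14 (1.51-fold lower) for CDDP alone, -0.87 ± 0.14 (1.83-fold lower) on top of olaparib and -1.12 ± 0.14 (2.17-fold lower) in OlaR cells. That of ID3 was 1.10 ± 0.06 (2.14-fold higher) alone, 0.42 ± 0.06 (1.34-fold higher) on top of olaparib and -0.44 ± 0.06 (1.35-fold lower) in OlaR cells. ID1 was thus lower everywhere, while ID3 was higher in parental and lower in OlaR cells. The log2 difference of ID4 was 0.38 ± 0.13 (1.30-fold higher) alone, 2.30 ± 0.13 (4.93-fold higher) on top of olaparib and -0.08 ± 0.13 in OlaR cells. That of ID2 was -0.47 ± 0.22 alone, -0.29 ± 0.22 on top of olaparib and -0.19 ± 0.22 in OlaR cells. The large value of ID4 on top of olaparib started from the low level that olaparib alone left. At 1 µM, ID1 differed by -0.78, -0.54 and -0.70, ID3 by 0.66, 0.05 and -0.12, ID4 by -0.25, 1.02 and -0.07 and ID2 by -0.21, -0.50 and -0.62 in the same order.

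Counted over the 4 genes in MDA-MB-468 at 2.5 µM, ID3 and ID4 lay wholly above and ID1 and ID2 wholly below for CDDP alone, where 20.4% of all 13012 genes tested lay wholly above and 18.6% wholly below. On top of olaparib ID3 and ID4 lay above and ID1 below, where 16.4% of genes lay above and 18.5% below. In OlaR cells ID1 and ID3 lay below, where 15.6% of genes lay above and 18.6% below. Again the same contrasts chose the genes.

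**Figure D2:**
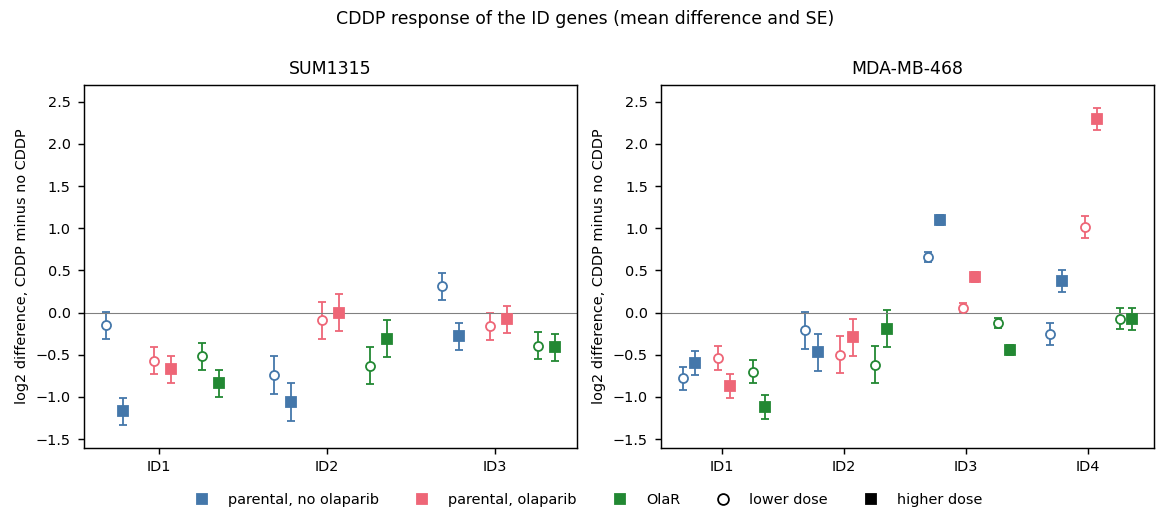
Log2 difference between CDDP-treated and CDDP-free cells for each ID gene, line and dose, alone, on top of olaparib and in OlaR cells, with circles for the lower dose, squares for the higher dose and lines of 1 SE; ID4 in SUM1315 is not drawn. In MDA-MB-468 at the higher dose ID3 lies at 1.10, 0.42 and -0.44 and ID4 at 0.38, 2.30 and -0.08.

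The difference between the OlaR and the parental response to CDDP was taken against olaparib-treated parental cells, since OlaR cells were always in olaparib, and it is likewise given without a test. In MDA-MB-468 at 2.5 µM it was -2.38 ± 0.19 on the log2 scale for ID4 and -0.86 ± 0.08 for ID3. For ID1 it was -0.25 ± 0.19 and for ID2 0.10 ± 0.30. At 1 µM the values were -1.10 ± 0.19 for ID4, -0.17 ± 0.08 for ID3, -0.16 ± 0.19 for ID1 and -0.12 ± 0.30 for ID2, and that of ID1 was 0.03 without the first library of the combination. In this line the value of ID4 was thus the most negative at either dose. In SUM1315 at 4 µM the values were -0.18 ± 0.23 for ID1, -0.31 ± 0.31 for ID2 and -0.33 ± 0.23 for ID3, and at 2 µM 0.05 ± 0.23, -0.55 ± 0.31 and -0.23 ± 0.23 in the same order. Taken against untreated parental cells, the response of ID3 in MDA-MB-468 differed by -1.54 ± 0.08 at 2.5 µM and by -0.79 ± 0.08 at 1 µM, and that of ID4 by -0.45 ± 0.19 and 0.18 ± 0.19. There ID1 differed by -0.52 ± 0.19 and 0.07 ± 0.19 and ID2 by 0.28 ± 0.30 and -0.41 ± 0.30. The size for ID4 therefore depended on whether the parental cells had received olaparib. In SUM1315 the values against untreated cells at 4 µM were 0.33 ± 0.23 for ID1, 0.75 ± 0.31 for ID2 and -0.13 ± 0.23 for ID3, and at 2 µM -0.37 ± 0.23, 0.11 ± 0.31 and -0.70 ± 0.23. Without the third untreated library those of ID3 were 0.23 and -0.35.

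Olaparib alone asked how the ID genes responded to PARP inhibition before resistance. In MDA-MB-468 ID4 was 3.01-fold lower with olaparib, at 88.3 ± 18.4 against 264 ± 5.89 adjusted reads. Its log2 difference was -1.59 ± 0.13, with all 3 olaparib libraries below all 3 untreated libraries. ID3 was slightly higher, by 0.23 ± 0.06 on the log2 scale (1.17-fold), again without overlap of the libraries. ID1 differed by 0.15 ± 0.14 and ID2 by 0.15 ± 0.22, and their libraries overlapped; ID1 came to 0.00 without the first untreated library and ID2 to -0.03 without the second olaparib library. Of all genes 18.1% had libraries wholly above and 15.7% wholly below.

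In SUM1315 the log2 difference under olaparib alone was -0.10 ± 0.16 for ID1, -0.39 ± 0.22 for ID2 and -0.14 ± 0.16 for ID3. The libraries of all 3 genes overlapped, where 22.2% of all genes had libraries wholly above and 22.6% wholly below. ID1 and ID3 depended on single untreated libraries: their differences were -0.31 and -0.49 without the third and 0.08 and 0.10 without the second.

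Other genes of BMP signaling and ID function, in 10 lists, were tested for olaparib alone. In SUM1315 11 of 62 were higher and 17 lower, where 18.9% of all genes were called higher and 17.1% lower, and in MDA-MB-468 6 of 57 were higher and 16 lower, where 12.4% and 9.11% were. Among 8 regulators of ID transcription, 3 fell in SUM1315 (median log2 difference -0.12) and 5 in MDA-MB-468 (median -0.55), beside medians of 0.00 and 0.01 over all genes. Markers differed as well: CD14 stood at 423 adjusted reads untreated and 67.0 with olaparib in SUM1315 and at 66.5 and 28 in MDA-MB-468, and EGFR at 955 and 716 and at 2840 and 2190. In SUM1315 summed epithelial markers ran from 3230 to 3740 untreated and from 1750 to 1860 with olaparib, and fibroblast markers from 918 to 976 and from 713 to 750, while in MDA-MB-468 the epithelial sums ran from 21600 to 22300 and from 23800 to 24700. The part of these markers was not tested. EGR1, an immediate early factor known to activate ID1, fell from 3095 ± 403 to 1399 ± 160 adjusted reads in SUM1315 (-1.14 ± 0.14, all 3 libraries lower, limma, Benjamini-Hochberg adjusted p = 5.2e-08). In MDA-MB-468 EGR1 fell from 793 ± 49.4 to 327 ± 50.5 (-1.29 ± 0.13, all 3 libraries lower, limma, adjusted p = 1.9e-11). JUN, which pairs with FOS in the AP-1 factor, fell by 0.94 and by 0.57 on the log2 scale in the same order of lines. Of 8 tested targets of SMAD1 and SMAD5 other than ID genes, 3 fell in SUM1315 (median -0.73), among them HEY1, from 220 ± 43.6 to 69.2 ± 6.24 (-1.64 ± 0.26, all 3 libraries lower, limma, adjusted p = 8e-06). The ligand BMP2 fell there from 397 ± 13.0 to 87.7 ± 3.25 (-2.16 ± 0.20, all 3 libraries lower, limma, adjusted p = 2.9e-10). Of the E proteins, which ID proteins bind, TCF3 (1102 ± 157 to 727 ± 32.9) and TCF4 (401 ± 42.4 to 284 ± 25.9) fell in SUM1315, and in MDA-MB-468, where TCF4 and TCF12 were too low to test, TCF3 differed by 0.11.

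Resistance was examined by comparing OlaR cells with parental cells given olaparib overnight. Both of these conditions without CDDP enter the difference of the CDDP responses, so a gene chosen for a lower OlaR response is more likely to lie high in OlaR cells or low with olaparib, and these values are no separate evidence. ID3 was 2.50-fold higher in OlaR SUM1315 cells, by 1.32 ± 0.16 on the log2 scale, with all 3 OlaR libraries above all 3 parental ones. In OlaR MDA-MB-468 cells it was 1.67-fold higher, by 0.74 ± 0.06, again in all 3 libraries. ID2 was 2.35-fold higher in SUM1315, by 1.24 ± 0.22 in all 3 libraries, and differed by 0.00 ± 0.22 in MDA-MB-468. ID1 was 1.78-fold higher in MDA-MB-468, by 0.84 ± 0.14 in all 3 libraries, and differed by -0.15 ± 0.16 in SUM1315. That SUM1315 value of ID1 was -0.30 without the third olaparib library and -0.06 without the second. ID4 was 2.29-fold higher in MDA-MB-468, by 1.20 ± 0.13 in all 3 libraries, at 202 ± 26.6 adjusted reads, which was still below the 264 ± 5.89 of untreated parental cells. In SUM1315 the libraries of ID2 and ID3 lay wholly above, where 25.9% of all genes lay above and 29.6% below. In MDA-MB-468 those of ID1, ID3 and ID4 lay wholly above, where 26.3% of all genes lay above and 29.9% below.

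**Figure D3:**
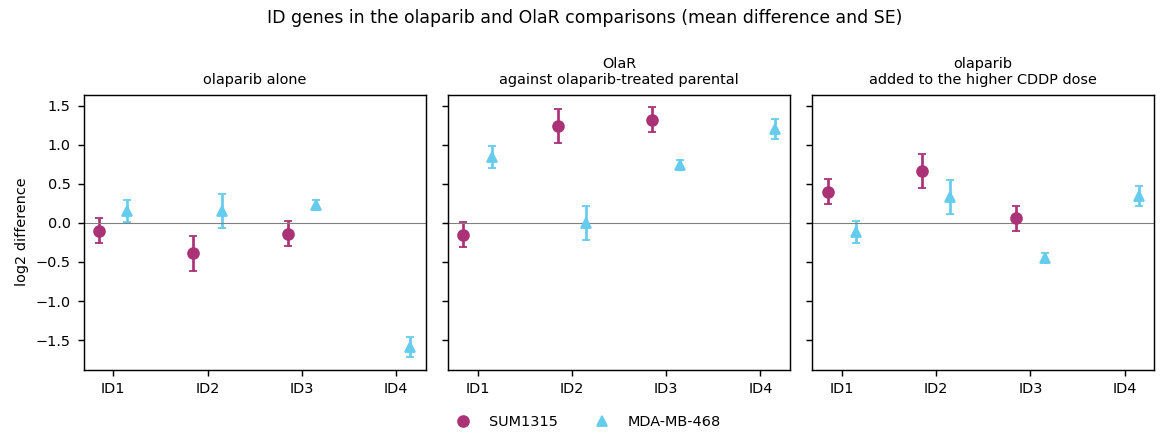
Log2 difference of each ID gene for olaparib alone, for OlaR cells against olaparib-treated parental cells and for olaparib added to the higher CDDP dose, with circles for SUM1315, triangles for MDA-MB-468 and lines of 1 SE; ID4 in SUM1315 is not drawn. For OlaR cells ID3 lies at 1.32 in SUM1315 and 0.74 in MDA-MB-468.

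Set against each other, the SUM1315 difference minus the MDA-MB-468 difference for OlaR cells was -0.99 ± 0.23 for ID1, 1.23 ± 0.31 for ID2 and 0.58 ± 0.19 for ID3, and for olaparib alone -0.26 ± 0.23, -0.54 ± 0.31 and -0.36 ± 0.19. These values carry no test. Those of ID1 and ID3 for olaparib alone were -0.46 and -0.72 without the third untreated SUM1315 library and -0.08 and -0.13 without the second. Libraries were sequenced in batches of 27 whose makeup the sources do not give, so line and batch cannot be told apart.

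Markers of other cells differed between olaparib-treated and OlaR cells. In SUM1315 the summed level of 6 fibroblast markers was 720, 713 and 750 adjusted reads in the olaparib-treated and 172, 157 and 223 in the OlaR libraries. COL1A1 led them (508 and 161), COL3A1 stood at 160 and 1.61, and COL1A2 was at 0 in all 3 OlaR libraries. The leukocyte marker CD14 stood at 67.0 and 24.9. The 4 endothelial markers summed to 159, 164 and 134 and to 71.7, 45.0 and 69.1, led by PECAM1, with CDH5 and KDR at 0 in all 6. Both sums were thus lower in OlaR SUM1315 cells. In MDA-MB-468 the fibroblast markers summed to 47.9, 35.1 and 46.9 and to 26.4, 32.8 and 26.8, with COL1A2, COL3A1, LUM and DCN at 0 throughout, and CD14 stood at 28 and 4.84. The endothelial markers there summed to 23.6, 14.6 and 25.4 and to 78.9, 56.9 and 50.4, led by KDR (12.0 and 55.3). Summed epithelial markers were higher in the OlaR cells of both lines, at 6410 to 6510 against 1750 to 1860 in SUM1315. In MDA-MB-468 they ran from 27500 to 28200 in OlaR and from 23800 to 24700 in olaparib-treated cells. Single keratins led these sums. In SUM1315 KRT17 stood at 3600 in OlaR and 853 in olaparib-treated cells and KRT7 at 2360 and 596, with EPCAM and KRT19 at 0 in OlaR libraries. In MDA-MB-468 KRT5 stood at 3590 and 477 and EPCAM at 3480 and 2990. KRT19 (15600 and 16500) and KRT8 (626 and 849) were lower there. Summed mesenchymal markers in SUM1315 were lower, at 14700 to 15300 in OlaR and 18800 to 19400 in olaparib-treated cells. VIM (9190 and 13000) led them, while FN1 (2430 and 1440) and AXL (915 and 716) were higher in OlaR cells. In MDA-MB-468 ESR1 stood at 216 in OlaR and 40.3 in olaparib-treated cells, and EGFR at 1890 and 2190, as against 495 and 716 in SUM1315. The part of these markers in the values of OlaR cells was not tested.

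Many genes of the BMP and ID lists moved with resistance, as did much of the transcriptome. In SUM1315 16 of 62 were higher and 27 lower, where 21.6% of all genes were called higher and 25.7% lower, and in MDA-MB-468 19 of 57 were higher and 17 lower, where 23.6% and 27.9% were. In simulated data, limma's calls for OlaR in SUM1315 held more false ones than the threshold names. Some genes had reached the filter only through the libraries in which they were high: TAL1 in SUM1315 and BMPR1B and MSX1 in MDA-MB-468 through OlaR, and BMP7, BMPR1B, FOS, CDKN2A and CDKN2B in SUM1315 and ASCL2 in MDA-MB-468 through parental libraries. Without them, a restriction chosen after seeing the data, 15 of 56 were higher and 24 lower in SUM1315, where 22.0% and 25.7% of all genes so restricted were, and 17 of 54 higher and 16 lower in MDA-MB-468, where 23.6% and 28.4% were. The counts of single lists below leave these genes out and stand beside these same shares, and several lie near them. Some genes stand in several lists, so these counts are not separate. Of the SMAD signal carriers, 3 of 4 fell in SUM1315 (median -0.50) and 2 of 3 rose in MDA-MB-468 (median 0.39). The remaining carrier, SMAD4, was too low to test in MDA-MB-468, at 1.4 adjusted reads with olaparib and 1.6 in OlaR cells. In SUM1315 SMAD4 stood at 250 and 189. What the near absence of SMAD4 means for BMP signals in MDA-MB-468 was not tested. SMAD1, which carries BMP signals to the nucleus, fell from 473 ± 26.7 to 315 ± 22.6 adjusted reads in SUM1315 (-0.58 ± 0.11, all 3 libraries lower, limma, Benjamini-Hochberg adjusted p = 2.9e-05) and rose from 393 ± 36.2 to 518 ± 68.9 in MDA-MB-468 (0.39 ± 0.09, all 3 libraries higher, limma, adjusted p = 0.00017). BMP ligands counted 0 of 3 in SUM1315 in limma (median 0.47), or with BMP7 0 of 4 (2 at an unadjusted p under 0.05, 0 in edgeR and 1 in DESeq2) and 1 lower of 5 in MDA-MB-468 (median -0.06), namely BMP4. BMP receptors counted 1 higher and 3 lower of 6 in SUM1315 (median -0.29) and 1 higher and 1 lower of 6 in MDA-MB-468 (median 0.13). BMP inhibitors counted 3 higher and 1 lower of 8 in SUM1315 (median 0.38) and 1 higher and 3 lower of 6 in MDA-MB-468 (median -0.24). The secreted inhibitor NOG rose in SUM1315 from 31.8 ± 11.7 to 423 ± 57.1 (3.76 ± 0.23, all 3 libraries higher, limma, adjusted p = 6.1e-15). Noggin, its product, binds BMPs outside the cell and keeps them from their receptors. Targets of SMAD1 and SMAD5 counted 3 higher and 1 lower of 8 in SUM1315 (median 0.44) and 2 higher and 2 lower of 6 in MDA-MB-468 (median 0.32), beside medians of -0.04 and -0.03 over all genes so restricted. MSX2 in MDA-MB-468 rose from 85.8 ± 17.4 to 161 ± 14.5, while BAMBI rose in SUM1315 (8.07 ± 2.54 to 27 ± 6.52) and fell in MDA-MB-468 (224 ± 48.3 to 122 ± 4.38).

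Some partners of ID proteins were also called in OlaR cells. Of the E proteins in SUM1315, TCF4 rose from 284 ± 25.9 to 637 ± 36.1 adjusted reads (1.16 ± 0.11, all 3 libraries higher, limma, Benjamini-Hochberg adjusted p = 4.8e-10) and TCF3 from 727 ± 32.9 to 1050 ± 53.5 (0.53 ± 0.10, all 3 libraries higher, limma, adjusted p = 8.7e-05). In MDA-MB-468 TCF3 fell from 1003 ± 27.6 to 728 ± 17.1 (-0.46 ± 0.07, all 3 libraries lower, limma, adjusted p = 1.9e-07). TCF3, the only E protein tested in both lines, thus changed in opposite directions. Counting all E proteins, 2 were higher and 1 lower of 3 in SUM1315 (median 0.53) and 1 was lower of 1 in MDA-MB-468. Other partners and turnover factors of ID proteins counted 4 higher and 5 lower of 10 in SUM1315 (median -0.19) and 3 higher and 4 lower of 10 in MDA-MB-468 (median 0.23). RBL1, a retinoblastoma family member, rose in both lines, from 160 ± 12.0 to 401 ± 6.58 in SUM1315 (1.33 ± 0.12) and from 75.9 ± 11.5 to 224 ± 33.3 in MDA-MB-468 (1.55 ± 0.16). The family did not move together. RBL2 stood lower in OlaR cells of both lines, at 152 against 268 in SUM1315 and 190 against 278 in MDA-MB-468. RB1 stood at 193 in OlaR and 403 in olaparib-treated SUM1315 cells, and was low in MDA-MB-468, at 22.2 and 13.8. Other basic helix-loop-helix and HES or HEY factors counted 1 higher and 8 lower of 10 in SUM1315 (median -0.80) and 4 higher and 1 lower of 8 in MDA-MB-468 (median 0.25).

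Among the regulators of ID transcription 1 was higher and 3 lower of 7 in OlaR SUM1315 cells (median 0.01) and 3 higher and 3 lower of 8 in OlaR MDA-MB-468 cells (median -0.05). EGR1 fell in both lines, from 1399 ± 160 to 58.2 ± 5.76 adjusted reads in SUM1315 (-4.56 ± 0.14, all 3 libraries lower, limma, Benjamini-Hochberg adjusted p = 3.6e-23) and from 327 ± 50.5 to 80.4 ± 11.4 in MDA-MB-468 (-2.01 ± 0.13, all 3 libraries lower, limma, adjusted p = 4.5e-19). JUN rose in SUM1315 from 478 ± 76.7 to 1189 ± 72.2, and MYC in MDA-MB-468 from 183 ± 41.3 to 276 ± 9.75. In the other line of each, JUN stood at 442 with olaparib and 349 in OlaR MDA-MB-468 cells, and MYC at 450 and 484 in SUM1315. The genes that ID proteins are known to oppose, the CDK inhibitors and CDH1, counted 1 higher and 0 lower of 3 in SUM1315 (median 0.11) and 2 higher and 2 lower of 6 in MDA-MB-468 (median -0.10). CDKN2A, which encodes p16, held 12.1, 7.35 and 18 adjusted reads in olaparib-treated SUM1315 libraries and was listed at 0 in all 3 OlaR libraries.

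Olaparib added to the higher CDDP dose asked whether the combination differed from CDDP alone. These libraries enter the CDDP responses that chose the ID genes. In MDA-MB-468 ID3 was 1.37-fold lower with olaparib, at 1814 ± 95.3 against 2476 ± 60.9 adjusted reads, a log2 difference of -0.45 ± 0.06 with all 3 libraries lower. ID4 differed by 0.34 ± 0.13 and ID2 by 0.33 ± 0.22, both with all 3 libraries higher, and ID1 by -0.12 ± 0.14 with overlap. Without the third library of the combination ID2 differed by 0.21. Of all genes 13.9% had libraries wholly above and 16.0% wholly below.

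In SUM1315 ID2 was 1.58-fold higher when olaparib was added to 4 µM CDDP, at 62.8 ± 8.45 against 39.0 ± 1.76 adjusted reads. The log2 difference was 0.66 ± 0.22, with all 3 libraries higher. ID1 differed by 0.40 ± 0.16 with all 3 libraries higher, and ID3 by 0.06 ± 0.16 with overlap. Of all genes 16.1% had libraries wholly above and 17.6% wholly below. Of the list genes 4 were called higher and 8 lower of 62 in SUM1315, where 6.32% of all genes were higher and 6.52% lower, and 4 higher and 2 lower of 57 in MDA-MB-468, where 4.63% and 7.29% were. CD14 stood at 136 adjusted reads with CDDP and 65.8 with both drugs in SUM1315 and at 38.4 and 15.6 in MDA-MB-468. Epithelial markers differed in both directions. In SUM1315 KRT7 stood at 1250 and 653, KRT18 at 541 and 288 and KRT17 at 649 and 806. In MDA-MB-468 KRT19 stood at 13100 and 9400, KRT8 at 834 and 530 and EPCAM at 2770 and 2980. The part of these markers was not tested. BMP2 fell in SUM1315 from 288 ± 51.8 to 120 ± 32.7 (-1.28 ± 0.20, all 3 libraries lower, limma, adjusted p = 4.1e-05). BMPR2, the type II BMP receptor, rose in both lines, from 151 ± 18.2 to 243 ± 20.4 in SUM1315 (0.68 ± 0.14) and from 216 ± 10.6 to 285 ± 22.8 in MDA-MB-468 (0.40 ± 0.10).

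The list genes, chosen by function with earlier results of these data known, were tested in the CDDP comparisons. In SUM1315, of 62 genes, 12 were higher and 11 lower for CDDP alone, where 22.2% of all genes were called higher and 21.7% lower. On top of olaparib 8 were higher and 2 lower, where 4.35% and 4.09% were, and in OlaR cells 6 and 9, where 7.13% and 9.61% were. In MDA-MB-468, of 57 genes, 9 were higher and 8 lower for CDDP alone, where 13.3% and 11.8% were. On top of olaparib 9 were higher and 6 lower there, where 10.1% and 13.1% were, and in OlaR cells 10 and 8, where 7.43% and 11.2% were. CD14 went from 423 to 136 adjusted reads for CDDP alone, from 67.0 to 65.8 on top of olaparib and from 24.9 to 16.2 in OlaR cells of SUM1315, and from 66.5 to 38.4, from 28 to 15.6 and from 4.84 to 2.43 in MDA-MB-468. Other markers differed too: KRT17 went from 1530 to 649 for CDDP alone in SUM1315, KRT19 from 16500 to 9400 on top of olaparib in MDA-MB-468, and in OlaR MDA-MB-468 cells KDR from 55.3 to 29.8 and ESR1 from 216 to 128. Epithelial markers did not move together. For CDDP alone in SUM1315 KRT18 went from 354 to 541 and KRT8 from 30.7 to 83.0. On top of olaparib in MDA-MB-468 KRT17 went from 191 to 266 and EPCAM from 2990 to 2980. The part of these markers was not tested. ATF3, a stress-induced factor, rose with the higher dose in all 6 settings. In MDA-MB-468 it went from 68.9 ± 4.12 to 272 ± 18.8 adjusted reads for CDDP alone (1.97 ± 0.17, all 3 libraries higher, limma, Benjamini-Hochberg adjusted p = 1.2e-13). On top of olaparib it went from 59.7 ± 10.5 to 317 ± 22.4 (2.40 ± 0.17, all 3 libraries higher, limma, adjusted p = 8.5e-17). In OlaR MDA-MB-468 cells it went from 71.1 ± 11.4 to 137 ± 19.3 (0.93 ± 0.17, all 3 libraries higher, limma, adjusted p = 2.7e-05). ATF3 was thus induced in parental and in OlaR cells. In SUM1315 the log2 differences of ATF3 were 1.14 ± 0.18, 1.28 ± 0.18 and 1.16 ± 0.18 in the same order.

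JUN rose in MDA-MB-468 in all 3 settings, by 1.30 ± 0.08, 1.81 ± 0.08 and 0.70 ± 0.08 on the log2 scale, all 3 libraries higher each time (limma, Benjamini-Hochberg adjusted p = 1e-18, 3.3e-24 and 1.2e-09). Of the 8 regulators of ID transcription there, 4 rose on top of olaparib (median 0.71), 4 rose in OlaR cells (median 0.53), and 2 rose and 2 fell for CDDP alone (median 0.18), beside medians of 0.00, 0.00 and 0.01 over all genes. In the same order 10.1%, 7.43% and 13.3% of all genes were called higher, and 11.8% were called lower for CDDP alone. Of the regulators that rose in OlaR cells, FOS at 0.66 and EGR1 at 0.40 were the less certain, with EGR1 not called in edgeR (adjusted p = 0.14). Of 7 targets of SMAD1 and SMAD5 other than ID genes in MDA-MB-468, limma called 0 in any setting of the higher dose (medians 0.01, 0.41 and 0.20), where 1, 1 and 0 had an unadjusted p under 0.05 and edgeR and DESeq2 each called 1, 1 and 0. In SUM1315 3 of 8 fell for CDDP alone (median -0.84), where 21.7% of all genes were called lower. Among them were HEY1, from 220 ± 43.6 to 109 ± 12.6 (-0.99 ± 0.26, all 3 libraries lower, limma, adjusted p = 0.0027) and ATOH8, from 81.0 ± 17.6 to 29.1 ± 13.0 (-1.53 ± 0.30, all 3 libraries lower, limma, adjusted p = 9.7e-05). ATOH8 also fell in OlaR SUM1315 cells, from 66.3 ± 6.0 to 26.2 ± 10.8 (-1.39 ± 0.30, all 3 libraries lower, limma, adjusted p = 0.0014). CDC20, whose product can direct ID proteins to degradation, rose with CDDP alone in SUM1315 (240 ± 24.4 to 536 ± 52.7) and fell in the other 5 settings, most on top of olaparib in MDA-MB-468 (1045 ± 96.0 to 518 ± 31.8). Turnover of ID proteins was not measured. USP1, which removes ubiquitin from ID proteins, rose with the higher CDDP dose on top of olaparib and in OlaR cells of both lines. The differences were 0.34 ± 0.11 and 0.64 ± 0.11 in SUM1315 and 0.60 ± 0.06 and 0.35 ± 0.06 in MDA-MB-468. For CDDP alone USP1 differed by 0.25 ± 0.11 in SUM1315 and -0.14 ± 0.06 in MDA-MB-468.

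**Figure D4:**
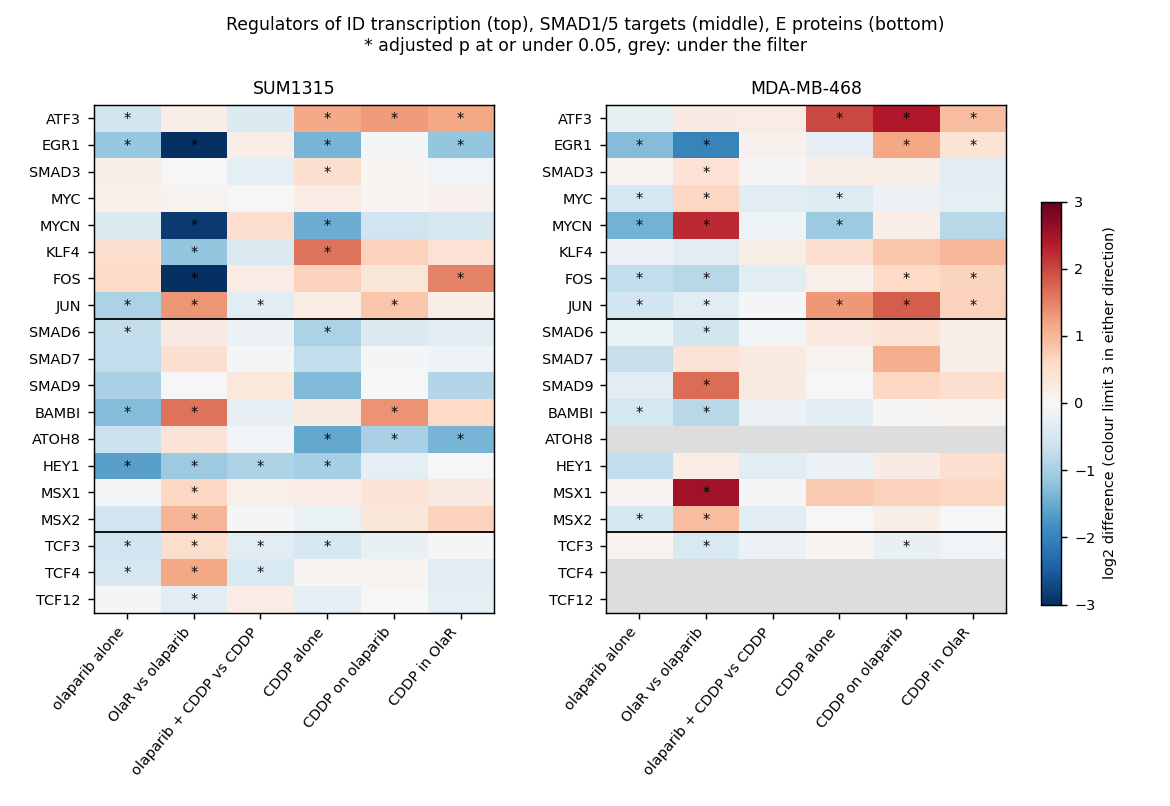
Log2 differences of regulators of ID transcription, targets of SMAD1 and SMAD5 and E proteins (genes down) in 6 comparisons (across) in SUM1315 and MDA-MB-468, with color for the size of the difference up to 3, stars for called genes and grey for genes under the filter. EGR1 is low for OlaR cells in both lines (-4.56 and -2.01), and ATF3 is high for the higher CDDP dose in all settings.

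Across the 9 condition means of each line, ID1, ID2, ID3 and ID4 did not share 1 pattern. Pearson r between ID2 and ID3 was 0.84 in SUM1315 and -0.39 in MDA-MB-468. Between ID1 and ID3 it was 0.04 and 0.07, between ID1 and ID2 0.11 and 0.50, and in MDA-MB-468 it was 0.38 between ID3 and ID4 and -0.46 between ID1 and ID4. These r describe 9 means each, carry no p, and rest on conditions that share drugs and depth. Among 9447 genes in SUM1315 those most like ID1 were KLF13 (r 0.96), MCRIP1 (0.94) and APOBEC3F (0.94), most like ID2 CHD6 (0.98), AHNAK2 (0.96) and TPM4 (0.96), and most like ID3 GLRX5 (0.98), CREB3L2 (0.97) and EFNB1 (0.97). Among 9356 genes in MDA-MB-468 those most like ID1 were APOOL (r 0.96), MAN1A1 (0.95) and SAMD12 (0.95), and most like ID3 SNRNP40 (0.88), ANKMY2 (0.86) and CAPG (0.86). The genes most like ID4 there were RCE1 (r 0.95), SLC3A2 (0.93) and DDIT3 (0.93), and those most like ID2 GIT2 (0.92), C12orf49 (0.90) and LCORL (0.89). Ranked by the lower r of the lines among 8292 genes, TSPAN9 led for ID1 (0.85 and 0.85), ADAM9 for ID2 (0.78 and 0.82) and FAAP20 for ID3 (0.83 and 0.81).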

How the data were processed

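Total RNA of the 54 libraries had been sequenced from transcript ends (QuantSeq, Lexogen). Per the submitters' processing notes, the authors used CASAVA 1.8.2, FastQC, STAR, HTSeq and edgeR on build hg38. The values deposited by the authors are a signal per gene and library: read counts that edgeR had adjusted to a common library size of 5585170, with a common dispersion of 0.01039. Of 27470 rows, 4082 held no reads, 27 had names turned into dates and 2 names were repeated. Reads were recovered by running that adjustment forward on whole numbers. Of 1483380 values, 1483380 (100%) came out whole, within a relative difference of 1e-06.

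Values were tested as log2(value + 1) with limma 3.58.1 in R 4.3.3, with an intensity trend, over all 27 libraries of a line with conditions as groups, two-sided, with Benjamini-Hochberg adjustment over all genes tested (13133 in SUM1315, 13012 in MDA-MB-468, 14390 between lines). The adjusted values understate changes of low genes. On recovered reads, edgeR 4.0.16 called 4725 genes for olaparib alone, 5944 for OlaR and 1739 for olaparib added to CDDP in SUM1315, and 3268, 6795 and 1998 in MDA-MB-468, where limma called 4732, 6203, 1686, 2802, 6702 and 1551. Alternatives were edgeR with DESeq2 size factors, DESeq2 1.42.0, pseudocounts of 0.5 and 5, no filter, a fold limit of 2, only the 2 conditions compared, a replicate block and leaving out each library. Python 3.11.15, numpy 2.4.6, scipy 1.17.1 and matplotlib 3.10.9 served for tables, promoter searches and figures. In tests on simulated data, limma's calls for OlaR held more false ones than the threshold names in SUM1315.

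The 4 ID genes and the 10 lists (87 genes) were chosen with earlier results of these data known. Tests of the ID genes for olaparib and OlaR had been planned and were left out, since these comparisons use the libraries of the CDDP responses that chose the genes; other genes were tested as planned. Of each list, up to 4 called genes with the largest differences and no overlap of libraries could be named, and per ID gene the 3 genes with the highest r among those with a mean of at least 50. The lists were BMP ligands, BMP receptors, SMAD signal carriers, BMP inhibitors, SMAD1 and SMAD5 targets, E proteins, other helix-loop-helix factors, partners and turnover of ID proteins, regulators of ID transcription, and CDK inhibitors with CDH1. Some genes stand in several lists. Replicates of a condition differed by more than sampling noise in every pair (chi-square per degree of freedom 1.59 to 20.6). The protocols give drug doses in mM, which were read as µM, as in the sample titles and the study's methods.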

Additional observations from a re-analysis of the deposited data

Results flagged for a closer look

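Several list genes changed in opposite directions in SUM1315 and MDA-MB-468. They were picked for this by a rule written after the values were seen, so the difference, SUM1315 minus MDA-MB-468 on the log2 scale, is given without a test. For OlaR against olaparib-treated parental cells it was -0.98 for SMAD1, 2.48 for BAMBI, 0.99 for TCF3, -2.26 for BHLHE41 and -5.09 for MYCN, with all 3 libraries apart in each line. BHLHE41, a helix-loop-helix repressor of the circadian clock, stood at 238 ± 14.6 adjusted reads in olaparib-treated and 82.4 ± 11.5 in OlaR SUM1315 cells, and at 85.8 ± 20.8 and 142 ± 26.2 in MDA-MB-468. MYCN stood at 102 ± 13.4 and 14.0 ± 7.01 in SUM1315, and at 8.93 ± 3.89 and 44.9 ± 14.8 in MDA-MB-468. For olaparib alone the difference was 1.34 for the BMP receptor ACVR1 (0.66 and -0.67).

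Other opposite directions were those of USP1 with olaparib added to CDDP (-0.42 in SUM1315 and 0.20 in MDA-MB-468, apart by -0.62), CDC20 for CDDP alone (1.16 and -0.52, apart by 1.68), and ETS2 (-0.33 and 0.35, apart by -0.68) and EGR1 (-1.16 and 0.40, apart by -1.56) for CDDP in OlaR cells, where EGR1 in MDA-MB-468 was not called in edgeR (adjusted p = 0.14). ID3 with CDDP on top of olaparib was among the values that chose the ID genes. It was lower in all 3 SUM1315 libraries (-0.08 ± 0.16) and higher in all 3 MDA-MB-468 libraries (0.42 ± 0.06), a difference of -0.50. The SUM1315 value lay within its SE of 0, so its direction is uncertain.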

How the results depend on the processing

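Across the alternatives, values of the ID genes moved by less than 1 SD in 1662 of 1715 cases, counts of all genes called stayed within 1.5 times in 201 of 214, counts of called list genes in 160 of 176 (16 were lower, 6 with the fold limit of 2, 9 without 1 library and 1 without the filter), named list genes kept their call in 2710 of 3044 (334 lost it), and the differences between lines of ACVR1, SMAD1, BAMBI, TCF3, BHLHE41 and MYCN, chosen after their values were seen, kept direction in 114 of 114. Such differences of USP1, CDC20, ETS2 and EGR1 were not run under the alternatives. Some settings cannot move a difference of means, so part of the cases above was fixed in advance. For the ID genes these were the fold limit of 2 (24 cases) and no filter (110). Only the 2 conditions compared (48) and the replicate block (110) were others. Among the 114 cases between lines, no filter (6) and the replicate block (6) were such settings. A restriction chosen after seeing the data, to genes that reached the filter both in parental and in OlaR libraries, left 5688 genes called for OlaR in SUM1315 and 6225 in MDA-MB-468. Where not said otherwise, the cause of a change was not tested. A fold limit of 2 left 1228, 2177 and 336 genes in SUM1315 (olaparib alone, OlaR, olaparib added to CDDP) and 226, 1855 and 57 in MDA-MB-468.

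When 1 library was left out, ID3 for olaparib alone in SUM1315 ran from -0.49 to 0.10 and ID1 from -0.31 to 0.08, both above 0 without the second untreated library. In MDA-MB-468, ID1 ran from 0.00 to 0.28 and ID2 from -0.03 to 0.36 for olaparib alone, the latter below 0 without the second olaparib library, and ID2 from -0.21 to 0.18 for OlaR. ID3 for olaparib alone between lines ran from -0.72 to -0.13. The CDDP value of ID1 at 1 µM on top of olaparib in MDA-MB-468 was -0.74 without the first library of the combination, which turned the difference of the ID1 responses there to 0.03, and without the third untreated SUM1315 library the difference of the ID3 responses against untreated cells was 0.23 (4 µM) and -0.35 (2 µM). ID4 in SUM1315 gave no value without any 1 of its untreated libraries, since it then no longer passed the filter. Counts of genes ran from 1386 (without the first OlaR library with 4 µM) to 1781 for CDDP in OlaR SUM1315 cells, and from 573 to 1144 for CDDP on top of olaparib there (573 and 646 without the first and second olaparib library, 639 and 681 without the second and the third library of the combination). For olaparib added to CDDP they ran from 1066 (without the third library of the combination) to 1266 in SUM1315 and from 1022 (likewise) to 1431 in MDA-MB-468.

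Replicate numbers did not pair the libraries: deviations of same-numbered libraries from their condition means had r of -0.053 to 0.064 in the comparisons of olaparib, OlaR and the higher CDDP dose. Over all pairs of conditions r ran from -0.098 to 0.163 in SUM1315 (median -0.002) and from -0.047 to 0.043 in MDA-MB-468 (median -0.005). With the replicate number as a block, 4690, 6195 and 1686 genes were called in SUM1315 and 2750, 6658 and 1480 in MDA-MB-468, and between lines 2836 for olaparib alone and 5995 for OlaR. ID4 in SUM1315 rested on 0 to 15 reads per library.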
